A study of Mus musculus with 6 samples.

Results

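Schwann cells are the glia of peripheral nerve, and 29 genes that mark them, their myelin or their neural crest origin were followed in cultured muscle satellite cells with and without the long noncoding RNA lncMREF. The genes were chosen by symbol and matched to Ensembl identifiers. They make up 29 of 21666 genes in the deposited count matrix, and all 29 had a value there. Satellite cells are the resident stem cells of skeletal muscle, and RNA-seq was run on cultures of them that had differentiated for 2 days. Of the 6 libraries, 3 came from wild-type (WT) mice and 3 from lncMREF knockout (KO) mice. The sources used here do not give the strain, age, sex or knockout design, nor whether each replicate was its own animal or culture. P-values therefore reflect the spread among these 6 libraries alone, and that spread may be technical. No identifier of lncMREF was known here, so its own level in the libraries is not reported.

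Schwann cells arise from neural crest through precursor and immature stages, and then either wrap an axon in myelin or bundle small axons without myelin. Sox10 is the transcription factor that the lineage carries at every stage, and Egr2 (also called Krox20) drives the myelin genes together with it. After nerve injury, myelinating cells turn off myelin genes and take up a repair state that brings back genes of the immature cell, such as Ngfr, Gap43, L1cam and Sox2. Accordingly 11 members were read as myelinating or promyelin genes, 11 as genes of crest, immature or repair cells, and 7 as lineage-wide or adhesion genes.

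Upstream sequences are shown for 4 members whose levels the results turn on: Ngfr, Sox2 and Foxd3, whose fold change was close to that of Sox10, and the myelin enzyme Cnp, whose fold change was smaller. Each is the 250 bases before the RefSeq start site (GRCm38.p6, the assembly behind mm10), 5′ to 3′ on the gene's strand. Capitals mark a SOX-type core (ACAAAG or ACAATG) or the E-box CAGCTG, which was searched because myogenic factors bind it, on both strands. The windows are chr11:95587699-95587948 on the minus strand for Ngfr, chr3:34649745-34649994 on the plus strand for Sox2, chr4:99656049-99656298 on the plus strand for Foxd3 and chr11:100574689-100574938 on the plus strand for Cnp.
Ngfr: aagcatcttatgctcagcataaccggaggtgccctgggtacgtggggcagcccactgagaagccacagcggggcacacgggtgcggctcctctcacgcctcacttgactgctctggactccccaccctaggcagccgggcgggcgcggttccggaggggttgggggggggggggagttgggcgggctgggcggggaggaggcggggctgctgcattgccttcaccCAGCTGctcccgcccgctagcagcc
Sox2: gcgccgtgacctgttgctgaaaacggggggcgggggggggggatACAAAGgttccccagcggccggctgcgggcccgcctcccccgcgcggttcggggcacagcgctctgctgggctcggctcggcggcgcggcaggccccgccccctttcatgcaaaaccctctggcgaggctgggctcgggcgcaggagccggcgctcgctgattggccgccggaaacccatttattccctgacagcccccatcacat
Foxd3: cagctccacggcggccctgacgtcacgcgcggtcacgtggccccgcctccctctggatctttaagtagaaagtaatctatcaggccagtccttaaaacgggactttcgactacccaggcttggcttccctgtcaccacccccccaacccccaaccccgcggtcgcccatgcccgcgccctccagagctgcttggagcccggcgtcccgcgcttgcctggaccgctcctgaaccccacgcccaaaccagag
Cnp: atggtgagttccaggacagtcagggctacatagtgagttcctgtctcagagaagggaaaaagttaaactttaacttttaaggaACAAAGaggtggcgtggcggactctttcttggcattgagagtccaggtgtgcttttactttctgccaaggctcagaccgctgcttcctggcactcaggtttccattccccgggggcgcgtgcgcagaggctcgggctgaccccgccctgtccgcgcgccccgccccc
In these windows Ngfr held an E-box CAGCTG starting at position -25, Sox2 and Cnp each held ACAAAG, at positions -206 and -167, and Foxd3 held no match. RefSeq windows were at hand for 21 members, in 35 windows; Cdh19, Erbb3, Gap43, Gfra3, Lgi4, Mbp, Pou3f1 and Sox10 had no entry. A SOX-type core lay in 6 of the 35 windows (17.1%), against 25.2% of all 32851 windows of this length. CAGCTG lay in 2 of 35 (5.71%), against 13% of all windows.

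Library totals ran from 17919826 to 28430678 counts, and of 15518 genes that passed the low-count filter, edgeR's quasi-likelihood test called 66.7% at a Benjamini-Hochberg adjusted p under 0.05. The muscle label fitted its markers: 12 muscle genes such as Des and Myh3 summed to between 20640 and 21470 CPM (counts scaled to a common library size, with TMM factors) in WT libraries and to between 4566 and 4930 in KO libraries. Genes of the mitochondrial chromosome took 3.97% to 4.18% of counts in WT and 2.07% to 2.3% in KO. Xist, the RNA of the inactive X chromosome, stood at 152 to 155 CPM in WT and 417 to 478 in KO, and the Y-linked Ddx3y at 57 to 66.1 and 33.9 to 37.5. The Y-linked genes did not all move together. Uty (20 to 22.2 and 12.6 to 16.4) and Eif2s3y (26.3 to 28.8 and 18.3 to 23.1) were also lower in KO, while Kdm5d was higher (14.7 to 14.9 and 16 to 17.1). Scaling by library size alone moved the median log2 fold change of all tested genes from 0.021 to 0.192, so fold changes are given on the TMM scale and small ones depend on it.

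Among the members, the tested genes of immature, repair and crest cells were all higher in KO cells, and the myelinating genes went both ways. Lists of other genes with these roles, given further on, did not follow this split: other repair and crest genes went both ways and other myelin genes were mostly higher. Of the 29 members, 26 passed the low-count filter. Among them 21 were higher in KO, 4 were lower and 1 was not called, against 33.7% of all tested genes called higher and 33% called lower. By over 2-fold, 18 were higher and 2 lower, against 8.56% and 9.38% of all tested genes. Tested against a 1.5-fold change with edgeR's glmTreat, added after seeing the data, 18 were higher and 3 lower, against 9.93% and 11.9% of all tested genes. The median log2 fold change (KO over WT) of the 26 was 1.30. Gfra3 is in these counts but reached the filter's cutoff in its KO libraries alone, so that it had to be high in KO to be tested; without it 20 members were higher, 4 lower and 1 not called (median 1.27). Of the other immature, repair and crest genes, 9 were tested and 9 rose, with a median of 2.00. Of the myelinating genes, 9 were tested: 5 rose, 3 fell and 1 was not called, with a median of 0.35. Of the 7 lineage-wide and adhesion genes, 6 rose and 1 fell (median 1.27). Mag, Ncmap and Gfap did not pass the filter. In bulk RNA, more cells of a type and more RNA per cell cannot be told apart.

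**Figure D1:**
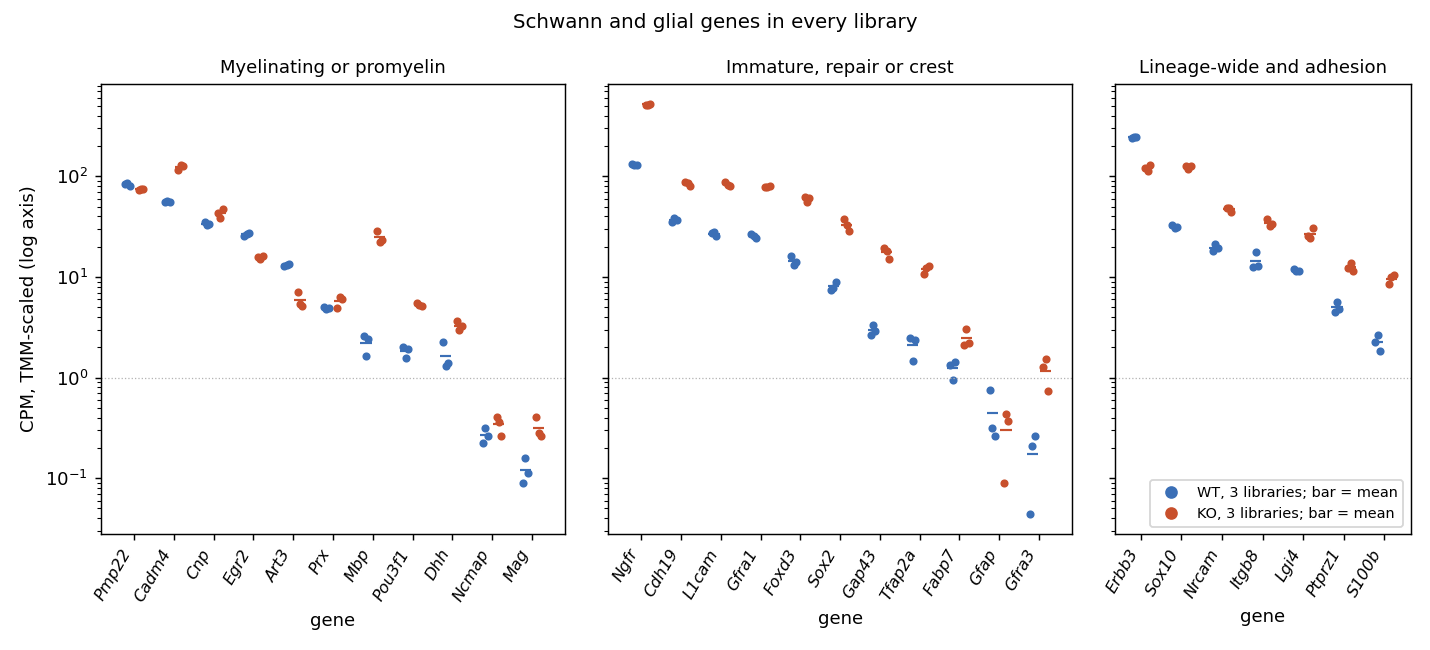
TMM-scaled CPM (log axis) of the 29 genes in the 3 WT and 3 KO libraries, points for libraries and bars for means, in 3 panels by role and ordered by WT level. The KO points of all immature, repair and crest genes but Gfap lie above their WT points, and those of Erbb3, Egr2, Art3 and Pmp22 lie below.

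Sox10 (ENSMUSG00000033006, chromosome 15, 79154908 to 79165240, mm10) stood at 33.0, 30.9 and 31.1 CPM in WT replicates 1 to 3 and at 125.9, 118.0 and 126.0 in KO replicates 1 to 3. All KO libraries lay above all WT libraries, as for 35.3% of tested genes. The log2 fold change was 1.96 (SE 0.05, adjusted p 9.78e-27, edgeR). In the authors' per-library tables Sox10 had a mean of 8.5 counts against 1716 in the matrix, and it did not pass the filter there. S100b, a calcium-binding protein of Schwann cells and other glia, went from 2.24 ± 0.403 to 9.65 ± 0.960 CPM (SD, n = 3 each), a change of 2.12 (SE 0.15).

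Erbb3, the neuregulin receptor through which axons keep Schwann cells alive, moved the other way. Erbb3 (ENSMUSG00000018166, chromosome 10, 128567523 to 128589652) stood at 238.5, 246.5 and 247.0 CPM in WT and at 121.3, 111.9 and 128.5 in KO. The groups did not overlap, with KO below WT as for 34.1% of tested genes, and the fall was 2.02-fold (log2 -1.02, SE 0.05, edgeR adjusted p 3.9e-20). In the authors' per-library tables, where Erbb3 had a mean of 496 counts against 4098 in the matrix, it was called higher instead (0.34, adjusted p 0.00124). Muscle cells also make Erbb3. Its partner receptor Erbb2, which is no member, stood at 136, 149 and 141 CPM in WT and at 52.8, 46.8 and 51.1 in KO (-1.50, SE 0.05). Muscle markers fell in the same libraries (10 of 12 lower), and their part in the Erbb3 and Erbb2 values was not tested.

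The immature-cell receptor Ngfr was the most abundant member in KO. Ngfr, the low-affinity neurotrophin receptor p75 (ENSMUSG00000000120, chromosome 11, 95568818 to 95587735), stood at 132.9, 128.5 and 128.6 CPM in WT and at 516.5, 517.3 and 522.8 in KO. Replicates lay within a few percent of each other and the genotypes did not overlap, with a log2 fold change of 2.00 (SE 0.04, edgeR adjusted p 4.04e-30). In the per-library tables Ngfr had a mean of 12.2 counts against 7198 in the matrix, and was called higher (1.48, edgeR adjusted p 0.00506). Per kilobase of exon, a scale that allows comparison between genes, Erbb3 was at 40.6, Ngfr at 37.7, Pmp22 at 35.4 and Cadm4 at 25.8 CPM per kb in WT. In KO the order became Ngfr at 150.6, Cadm4 at 57.6, Sox10 at 40.4 and Pmp22 at 31.7, with Erbb3 at 20.04 in place 6.

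The 3 crest and stem-like transcription factors among the members had fold changes near or above that of Sox10. Crest factors outside the members, chosen after their values were seen, did not: Pax3, which satellite cells also make, and Sox9 fell (-2.28 and -0.56), and Snai2 and Sox8 rose by 0.66 and 0.77 on the log2 scale. Foxd3, a factor of premigratory crest and Schwann precursors (chromosome 4, 99656299 to 99658622), stood at 16.1, 13.1 and 14.1 CPM in WT and 62.1, 55.2 and 61.0 in KO (2.04, SE 0.07). Sox2, which holds Schwann cells in the immature state and represses myelination (chromosome 3, 34650405 to 34652461), stood at 7.43, 7.79 and 8.96 in WT and 37.6, 32.8 and 28.9 in KO (2.03, SE 0.10). Tfap2a, a crest factor that is switched off as precursors mature, went from 2.11 ± 0.552 to 12.0 ± 1.17 CPM (2.48, SE 0.15). For each of the 3 the KO libraries all lay above the WT libraries. In the per-library tables Foxd3 and Sox2 had a mean of 0 counts and Tfap2a of 0.17, so none of them was tested there. Of the exonic bases of Tfap2a, 14.6% are shared with other annotated genes, of which 2 had counts, each below 0.3 CPM in either genotype.

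Growth cone and adhesion genes of the immature and repair cell also rose. Gap43, a growth-associated protein of axons and non-myelinating Schwann cells (chromosome 16, 42248442 to 42340651), stood at 2.67, 3.37 and 2.87 CPM in WT and at 19.4, 18.3 and 15.2 in KO. It rose 5.94-fold (log2 2.58, SE 0.13, edgeR adjusted p 2.71e-19), and had a mean of 0 counts in the per-library tables. The adhesion molecule L1cam stood at 27.1, 28.01 and 25.3 CPM in WT and at 87.0, 81.8 and 80.6 in KO (1.64, SE 0.06). The per-library tables, with a mean of 105 L1cam counts against 1221 in the matrix, gave the opposite direction (-0.63, adjusted p 0.000645). L1cam lies on the X chromosome, and the part of the Xist difference between these libraries was not tested. Cdh19, a cadherin of Schwann precursors, went from 36.9 ± 1.80 to 84.9 ± 4.47, and Fabp7, a fatty acid carrier of glial precursors, from 1.23 ± 0.251 to 2.47 ± 0.518 (0.99, SE 0.25).

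Both receptors for GDNF family ligands among the members were higher in KO. Gfra3, however, reached the filter's cutoff in its KO libraries alone, so it had to be high in KO to be tested. Gfra1, which binds GDNF, stood at 26.8, 25.8 and 24.5 CPM in WT and at 78.4, 78.5 and 79.7 in KO (1.62, SE 0.06). Gfra3, which binds artemin, had 1, 4 and 7 counts in WT and 28, 38 and 14 in KO (2.73, SE 0.46, edgeR adjusted p 3.16e-06; 0.13 and 0.295, not called, in the per-library tables). Gfap, the intermediate filament of astrocytes and non-myelinating Schwann cells, had 17, 6 and 7 counts in WT and 2, 11 and 7 in KO. The Gfap libraries of both genotypes overlapped. Gfap did not pass the low-count filter and was not called in the fit made without it.

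**Figure D2:**
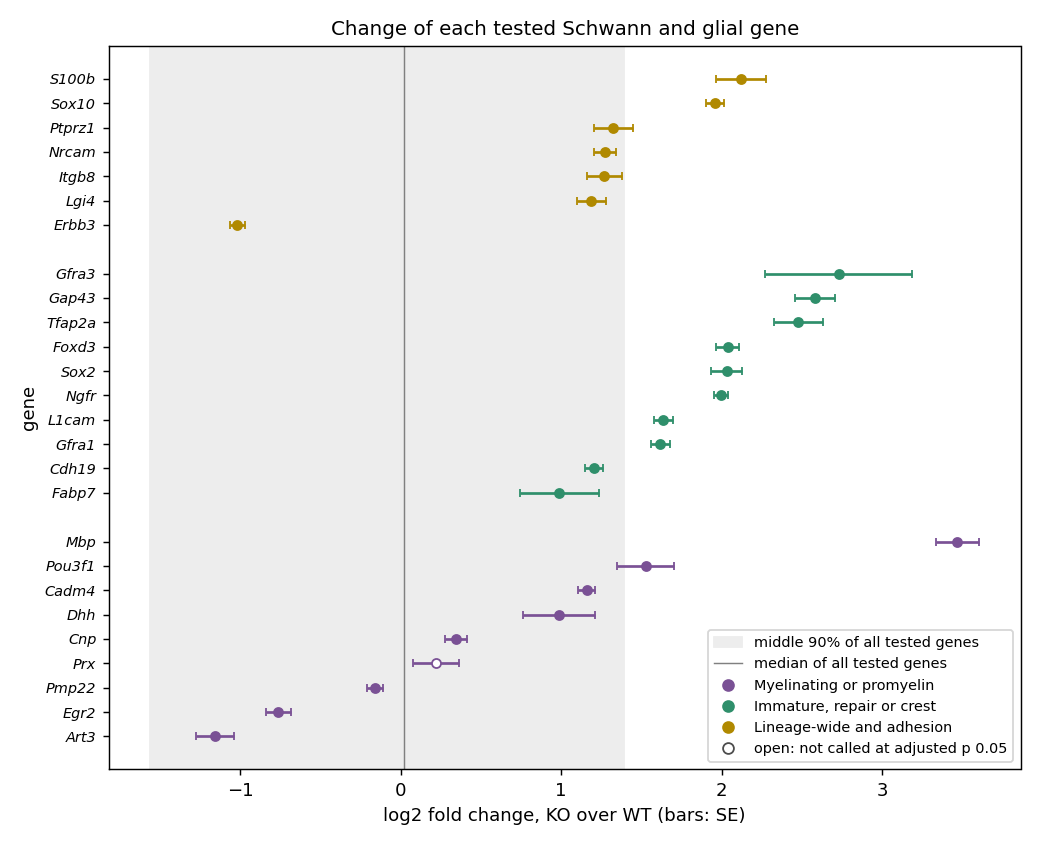
Log2 fold change, KO over WT, of the 26 tested genes with its SE, by role; grey marks the middle 90% of all tested genes (-1.56 to 1.39) and the line their median (0.021). Mbp stands highest at 3.47, Art3 lowest at -1.16, and Prx (open point) was not called.

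Among the structural myelin genes of the members, Mbp stood apart from the others. Of 8 other myelin genes tested outside the members, 7 were higher and 1 lower. There Gjc3 (2.34) and Nfasc (1.98) also rose by more than Sox10 (1.96) on the log2 scale. Mbp encodes myelin basic protein, which compacts the membrane layers (ENSMUSG00000041607, chromosome 18); the same gene also makes the Golli transcripts, found outside myelin, and gene counts do not separate them. It stood at 2.58, 1.63 and 2.43 CPM in WT and at 28.9, 22.5 and 23.6 in KO. That is an 11.3-fold rise (log2 3.47, SE 0.14, edgeR adjusted p 5.32e-19), and 0.161% of tested genes had a larger log2 fold change. In the per-library tables the log2 value was 1.48 (adjusted p 4.2e-11).

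The other structural myelin genes among the members that could be tested, Pmp22, Cnp and Prx, had log2 fold changes between -0.16 and 0.35. Pmp22, a membrane protein of compact myelin that other cells make too (chromosome 11, 63128982 to 63159547), stood at 83.8, 85.7 and 80.6 CPM in WT and at 73.7, 74.7 and 75.5 in KO. It was called lower (-0.16, SE 0.05, edgeR adjusted p 0.00551), but with library size only the value was 0.01 and not called. Cnp, an enzyme of myelin-forming cells with low expression elsewhere, stood at 34.9, 32.7 and 33.9 CPM in WT and at 43.3, 38.7 and 47.6 in KO (0.35, SE 0.07; 0.04 and not called in the per-library tables, adjusted p 0.891). Periaxin (Prx), a scaffold of the Schwann cell membrane around the myelin sheath, stood at 5.03, 4.79 and 4.96 in WT and 4.94, 6.29 and 6.01 in KO, where the groups overlapped (0.22, SE 0.14, edgeR adjusted p 0.172; 0.39 and 0.0151 with library size only). Mag, the adhesion protein between myelin and axon, had 2, 3 and 3 counts in WT and 9, 7 and 5 in KO, and Ncmap, a protein of the noncompact myelin membrane, 5, 6 and 7 counts and 9, 9 and 5. Neither passed the low-count filter, and neither was called in the fit made without it. The KO libraries of Mag all lay above its WT libraries, as for 35.3% of tested genes.

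The regulators and signals of myelination moved in opposite directions. Egr2 (ENSMUSG00000037868, chromosome 10, 67535475 to 67542188) stood at 25.7, 26.8 and 27.5 CPM in WT and at 15.7, 15.3 and 16.3 in KO. All KO libraries lay below the WT libraries (-0.76, SE 0.08, edgeR adjusted p 7.8e-11). In the per-library tables Egr2 had a mean of 0 counts. Pou3f1, the promyelin factor that precedes Egr2 (also called Oct6), rose from 1.83 ± 0.221 to 5.32 ± 0.188 CPM (1.53, SE 0.18). Desert hedgehog (Dhh), a Schwann cell signal to the nerve sheath, had 51, 25 and 37 counts in WT and 80, 75 and 62 in KO (0.99, SE 0.22, edgeR adjusted p 0.000226). Of the exonic bases of Dhh, 25.2% are shared, and the neighbour Rhebl1 also rose, by 0.55 on the log2 scale.

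Cadm4, the adhesion molecule by which Schwann cells grip the axon's internode, stood at 55.4, 56.4 and 55.5 CPM in WT and at 116.9, 130.8 and 125.5 in KO (1.16, SE 0.05; 0.45 in the per-library tables, adjusted p 0.00688). Art3, an ecto-ADP-ribosyltransferase family gene with transcripts in both Schwann cells and muscle, stood at 12.9, 13.3 and 13.4 in WT and at 7.11, 5.42 and 5.17 in KO (-1.16, SE 0.12).

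The remaining adhesion and receptor genes rose by similar amounts, between 1.19 and 1.33 on the log2 scale. Ptprz1, a receptor phosphatase for pleiotrophin, went from 4.998 ± 0.617 to 12.4 ± 1.13 CPM. Nrcam, an adhesion molecule of the node of Ranvier, went from 19.6 ± 1.40 to 47.0 ± 2.79, and Itgb8, an integrin subunit that activates TGF-beta, from 14.4 ± 2.95 to 34.5 ± 2.62 (log2 1.27; 0.68 in the per-library tables, adjusted p 0.0431). Lgi4, a secreted Schwann cell protein needed for myelination, went from 11.7 ± 0.355 to 26.8 ± 3.19. For Lgi4, 44.9% of exonic bases are shared with the antisense gene Fxyd3, which stood at 0.572 ± 0.160 and 0.904 ± 0.239 CPM.

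Each member was then set against Sox10 in the same library, as log2 of the ratio of TMM-scaled CPM values with 0.5 added to both. Scaling between libraries enters this ratio only through the added 0.5, which weighs most on genes of low CPM. This was read for the 24 members other than Sox10 with a mean of at least 1 CPM in both genotypes. Ngfr stood at 1.99, 2.04 and 2.03 in WT and at 2.03, 2.13 and 2.05 in KO, a difference of 0.05. For Sox2 the difference was 0.02, for Foxd3 0.07 and for S100b -0.05, and in each of these 4 genes the genotypes overlapped. Of the 9 immature, repair and crest genes, 4 overlapped between genotypes, Gap43 was higher relative to Sox10 in KO (0.44) and 4 were lower, namely L1cam, Gfra1, Cdh19 and Fabp7, by -0.33 to -1.17; the median was 0.02.

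Of the 9 myelinating genes, 8 were lower relative to Sox10 in KO, without overlap, and the median difference was -1.60. Sox10 itself rose by 1.96 on the log2 scale, and 2.4% of all tested genes had a larger log2 fold change. A fall relative to Sox10 is therefore not particular to myelinating genes. The exception was Mbp, at -3.44, -3.88 and -3.43 in WT and -2.10, -2.37 and -2.39 in KO, a difference of 1.30. Egr2 went from -0.25 ± 0.10 to -2.93 ± 0.03 (SD, n = 3 each), a difference of -2.69. Art3 differed by -3.05, Pmp22 by -2.10, Prx by -1.75 and Cnp by -1.60. Erbb3 went from 2.93 ± 0.08 to -0.03 ± 0.06, a difference of -2.96, so that its CPM in KO was close to that of Sox10. With 3 libraries against 3 the exact two-sided permutation test cannot go below p = 0.1, which each gene without overlap reached (0.13 after Benjamini-Hochberg adjustment over 28 ratios). A ratio to Sox10 is shared by all members through its denominator, and Pmp22, Egr2, Cnp, Erbb3 and Art3 are made by other cells too. Such sources are not confined to genes that fell: Ngfr is also listed with perineurial and endoneurial genes, and Gap43 is a protein of axons too. Which cells made the RNA of each member was not tested, so the ratio is not a level per Schwann cell.

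**Figure D3:**
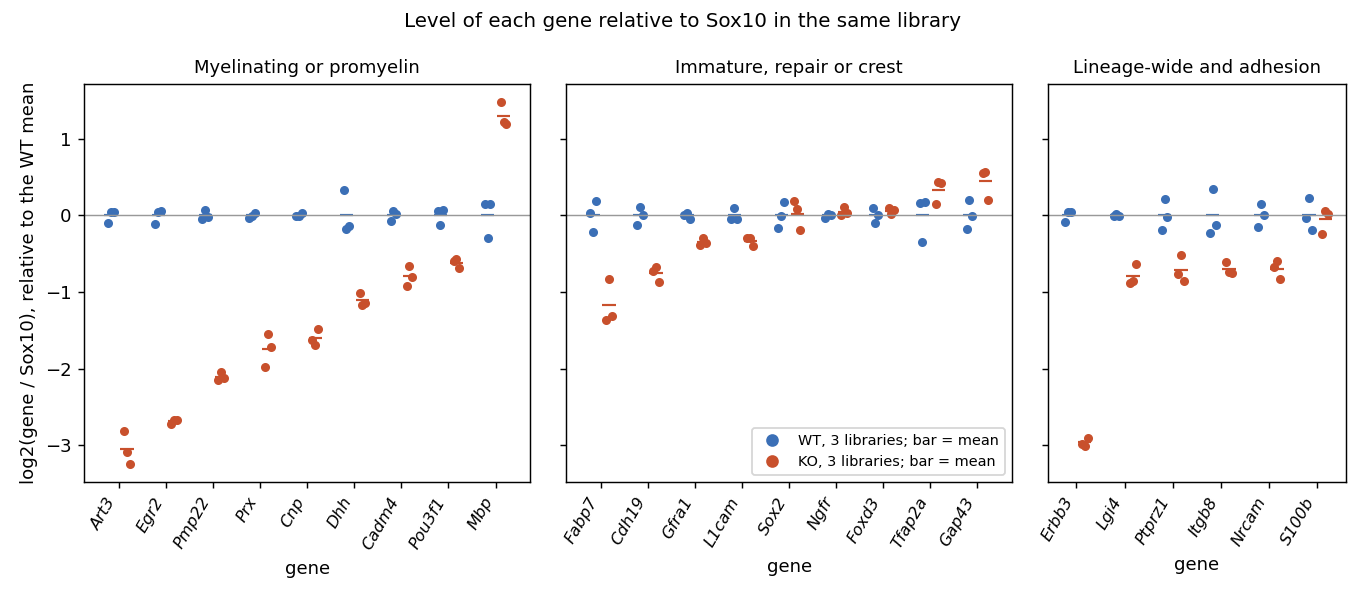
Log2 ratio of each gene to Sox10 in the same library, drawn relative to the WT mean of that gene, for the 24 genes with at least 1 CPM in both genotypes; points are libraries and bars means. Sox2, Ngfr, Foxd3 and S100b stay within 0.1 of 0 on average, 8 of 9 myelinating genes lie below 0 in KO, and Mbp lies above it. Of all tested genes, 2.4% had a larger log2 fold change than Sox10.

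Of 12 other myelin genes, 8 were tested, of which 7 were higher and 1 lower (median 1.10). Cldn19 (1.03) and Ugt8a (1.07) reached the filter's cutoff in KO libraries alone; without them 5 were higher and 1 lower (median 1.17). Gjc3, a connexin of myelinating glia, stood at 4.18, 3.16 and 3.13 CPM in WT and at 17.3, 18.2 and 17.5 in KO (2.34, SE 0.12). Gldn, the gliomedin of Schwann cell processes at nodes, rose by 0.99 on the log2 scale, and Nfasc, the neurofascin of nodes and paranodes, from 0.780 ± 0.245 to 3.07 ± 0.722 CPM (1.98, SE 0.27). Mal (1.199) and Dusp15 (1.13) were also higher. Drp2, the dystrophin-related protein that binds periaxin, fell from 35.2 ± 1.08 to 16.5 ± 0.489 (-1.09, SE 0.07). Pmp2, Pllp, Gjb1 and Fa2h did not pass the filter.

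Other repair or immature genes went both ways. Of 18 listed, 17 were tested, with 9 higher, 7 lower and 1 not called (median 0.37). Of the 3 GDNF family ligands tested, 2 rose: Artn (artemin) had 98, 57 and 100 counts in WT and 492, 529 and 418 in KO (2.54, SE 0.11), and Gdnf went from 13.3 ± 0.293 to 40.5 ± 1.31 (1.60, SE 0.07). The third, Nrtn (neurturin), had 17, 10 and 12 counts in WT and 8, 12 and 18 in KO, where the genotypes overlapped, and was not called (0.02, SE 0.41, edgeR adjusted p 0.975). Ret, the kinase that signals for both receptors, fell from 15.7 ± 0.215 to 5.56 ± 0.346 (-1.49, SE 0.11). Ncam1 (-1.72) and the intermediate filament nestin (Nes, -1.54) fell; differentiating muscle makes both. Olig1, a repair Schwann cell factor that oligodendrocytes also make, had 27, 10 and 23 counts in WT and 168, 167 and 123 in KO (2.97, SE 0.21).

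Of 15 other crest and Schwann regulators, 13 were tested, with 5 higher, 7 lower and 1 not called (median -0.21). Pax3 passed the filter through its WT libraries alone, and without it 6 were lower (median -0.06). Etv1 fell from 22.6 ± 1.39 to 5.96 ± 0.422 CPM (-1.92), Etv5 by 1.23 and Tead1 by 0.60 on the log2 scale, while Ets1 rose from 85.8 ± 2.83 to 145.3 ± 8.23 (0.76). Muscle and fibroblasts express these factors as well. Tfap2b was not analysed here, and Pou3f2 did not pass the filter.

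Among 32 ligands, co-receptors and partners of the members, 26 were tested: 14 were higher, 7 lower and 5 not called (median 0.62). Gli1 and Ntrk3 passed the filter through their KO libraries alone and Nrtn through neither genotype alone, and without these 12 were higher, 7 lower and 4 not called (median 0.45). Ptn (pleiotrophin), a ligand of Ptprz1, stood at 2.18, 1.95 and 1.87 CPM in WT and at 31.6, 29.7 and 26.7 in KO (3.88, SE 0.12). The neuregulin Nrg1 stood at 14.7, 15.5 and 16.1 CPM in WT and 17.7, 12.3 and 15.2 in KO, and was not called (-0.04, SE 0.10, edgeR adjusted p 0.742). Gli1, a target of hedgehog signals such as Dhh, had 19, 18 and 12 counts in WT and 104, 117 and 119 in KO (2.83, SE 0.24), whereas the hedgehog co-receptor Cdon fell (-1.25, SE 0.05). Ret, Olig1, Nrtn, Nrg1 and Gli1, like Mal, Dusp15, Cldn19 and Ugt8a above, were chosen after their values were seen.

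**Figure D4:**
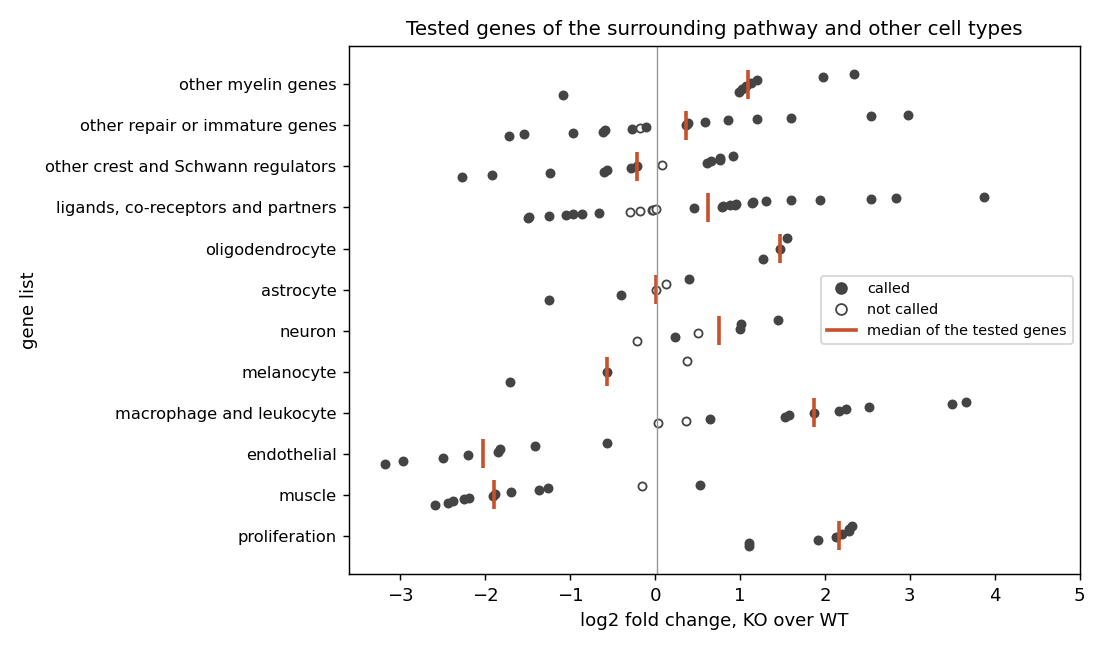
Log2 fold change, KO over WT, of the tested genes in 12 lists around the members, 1 point per gene and a red bar at each list's median. Other myelin genes lie mostly to the right of 0 (median 1.10), the repair, regulator and partner lists spread to both sides, endothelial genes lie to the left and muscle genes mostly so.

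Markers of other cells that carry some of these genes were uneven in level: many did not pass the filter, while others stood above some members. Tubb3 in the neuron list and Gja1 in the astrocyte list were the highest. In WT, Aldh1l1 (16.3 CPM), Mitf (12.5), Fgfr3 (12.1) and Kit (8.57) also exceeded members such as Mbp (2.21) and S100b (2.24). Of 10 oligodendrocyte genes, 3 were tested: Aspa (1.47) and Myrf (1.55) rose, and Nkx2-2, which passed the filter through its KO libraries alone, was called at 1.27. The list summed to 5.63 to 7.61 CPM in WT and 17.5 to 19.4 in KO. Mog and Cldn11 did not pass the filter, Olig2 had 0 counts in each WT library and 8 in each KO library, and Mobp, Opalin and Hapln2 were not analysed here. Of 8 melanocyte genes, 3 were tested, of which Kit and Mitf fell and Pmel was not called (sum 21.5 to 22.9 in WT and 12.0 to 12.7 in KO); Dct, Tyr and Tyrp1 were not analysed here. Of 13 neuron genes, 6 were tested and 4 rose, Tubb3, Prph, Stmn2 and Isl1 (Prph and Isl1 passed the filter through KO libraries alone), with sums of 80.9 to 83.3 and 89.7 to 106.3 CPM, nearly all from Tubb3 (77.7 ± 1.41 and 91.6 ± 7.58). Snap25, Syt1, Elavl3, Elavl4 and Nefl did not pass the filter. Of 8 astrocyte genes, 5 were tested, with 1 higher, 2 lower and 2 not called (sums 132 to 145.3 and 111.5 to 118.9). Gja1 alone held 69.7% to 72.8% of the astrocyte sum in WT and 63.6% to 66.7% in KO.

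Of 9 perineurial and endoneurial genes, 8 were tested, with 3 higher and 5 lower; Ngfr is among them, and the endoneurial gene Moxd1 fell from 390.4 ± 7.85 to 201 ± 3.27 CPM (-0.96). Of 8 fibro-adipogenic genes, 7 were tested, with 4 higher (Dpp4 through KO libraries alone), 2 lower and 1 not called, and sums of 10220 to 10360 in WT and 11630 to 12370 in KO. Macrophage genes rose in the same libraries (9 of 11, 2 not called, with Tyrobp and Trem2 tested through KO libraries alone; sums 98.0 to 105 and 301.9 to 308.6 CPM), endothelial genes fell (8 of 8; 305.4 to 312.5 and 74.3 to 80.1) and proliferation genes rose (8 of 8; 173.3 to 179 and 597.4 to 639.1). The part of these cells, of proliferation and of the mitochondrial share in the Schwann gene values was not tested.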

How the data were processed

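Gene counts were taken from the whole-series matrix. The authors deposited counts as whole numbers without normalisation, in that matrix and in a table per library. Per the submitters' processing notes, the tools were featureCounts 2.0.1 and HISAT2 2.2.1 with genome build mm10; the annotation release, counting options and strand setting are not given in those sources. Overlapping and antisense genes may therefore share reads. For 2 of 29 members alone the per-library tables gave a mean between 0.8 and 1.25 times that of the matrix, and 7 were at 0 there, so these tables served as an alternative. The 7 were Pmp22, Egr2, Sox2, Gap43, Fabp7, Foxd3 and S100b. Mean counts there and in the matrix were 12.2 and 7198 for Ngfr, 8.5 and 1716 for Sox10, 0.5 and 1160 for Gfra1, and 1.5 and 1359 for Cdh19. Symbols, mm10 coordinates and exon lengths came from GENCODE M21, promoter windows from RefSeq. Genes were filtered with filterByExpr (minimum count 10, minimum total 15; a CPM of at least 0.449 in 3 libraries), scaled by TMM and tested with edgeR 4.0.16 (R 4.3.3; quasi-likelihood, robust, genotype as the only term) with Benjamini-Hochberg adjustment over 15518 genes. SE is the fold change over the root of F. Replicates differed beyond sampling noise (mean chi-square per gene 3.18 to 5.11). Members and lists were chosen with earlier results of these data known. From each other list the tested genes with the smallest p, up to 4, were named and further genes where the text says so; 2 more other myelin genes are not reported here and stand outside the 12 counted. Alternatives were other scalings, no filter, DESeq2 1.42.0, limma 3.58.1 voom, a replicate block, each library left out and, added after seeing the data, a test against 1.5-fold and a ratio pseudocount of 0.05.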

Additional observations from a re-analysis of the deposited data

How the results depend on the processing

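All 26 tested members kept direction and call with median-of-ratios scaling, no low-count filter, DESeq2, limma voom and each of the 6 libraries left out, giving 21 higher and 4 lower each time, while calls over all genes ran from 9766 to 10151 without a library. With library size only, 22 were higher and 3 lower, since Pmp22 turned to 0.01 (adjusted p 0.83) and Prx was called. The test against 1.5-fold, added after seeing the data, called 3394 genes, 18 members higher and 3 lower; Pmp22, Cnp, Dhh and Fabp7 lost their call. The per-library tables called 5436 of 9871 genes by edgeR, with 7 members higher and 1 lower. Of the 26 members tested in the matrix, 10 were tested there. The 7 include a member that did not pass the matrix filter (Mag, Ncmap or Gfap), whose value there is not reported here. In these tables L1cam was called lower (-0.63, edgeR adjusted p 0.000645) and Erbb3 higher (0.34, edgeR adjusted p 0.00124). Cnp (0.04, edgeR adjusted p 0.891) and Gfra3 (0.13, edgeR adjusted p 0.295) lost their calls. Mbp was at 1.48, Cadm4 at 0.45 and Itgb8 at 0.68, and the cause of these differences was not tested. Of the 2 members whose counts matched between the tables, Ptprz1 stayed called (1.33) and Prx uncalled (0.06). Sox10 did not pass the filter in those tables, so ratios to it were not formed. With a ratio pseudocount of 0.05 the difference was 1.53 for Mbp, -0.44 for Pou3f1 and -2.72 for Egr2. Over all ratios, 4 then moved by at least the larger replicate SD, Pou3f1 among them, and 24 did not. The replicate block gave 21 higher, 4 lower and 10209 calls over all genes, and changed no member's call. Same-numbered libraries did not deviate together (r of -0.000914, -0.00889 and -0.025), and 0 of 6 correlated best with their own number, so the numbers were not taken to pair them. Depth limits Mag, Ncmap, Gfap and Gfra3, which had 38 counts or fewer in every library.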
